A study of Mus musculus with 6 samples.

Results

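The pentose phosphate pathway branches off glycolysis at glucose 6-phosphate. Its oxidative arm yields NADPH and its non-oxidative arm interconverts sugar phosphates and yields ribose 5-phosphate for nucleotides. NADPH serves reductive synthesis, steroid production and the recycling of glutathione. Glucose 6-phosphate is also reached from glycogen, so the pathway is one of the routes open to glucose units released from a glycogen store. The 8 genes described here were chosen by name: the oxidative enzymes G6pdx, H6pd, Pgls and Pgd, and the non-oxidative enzymes Rpia, Rpe, Tkt and Taldo1. They are 8 of the 24470 genes in the deposited count table, and all 8 passed the filter on low counts.

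To ask how these transcripts stood in testes with a Ppp1r3c deletion, RNA-seq counts of E12.5 (embryonic day) mouse testes were set side by side for 3 control samples and 3 Ppp1r3c cKO (conditional knockout) samples. Ppp1r3c encodes a glycogen-targeting regulator of protein phosphatase 1 that favours glycogen storage. Control embryos carried the floxed genotype Ppp1r3c f/f without Cre, and cKO embryos were Sf1-Cre Ppp1r3c f/f, so both groups held the floxed alleles. The Cre is driven by Nr5a1 (Sf1) sequences and is active in somatic cells of the gonad, not in germ cells, and the lines were kept on a C57BL/6 background. Each sample pooled 2 gonad pairs, and no control carried the Cre alone, so effects of the Cre and of the deletion cannot be told apart. Libraries held 16139487 to 44145158 counts, and control replicate 1 was the shallowest.

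Ppp1r3c was at 24.4, 22.1 and 22.9 CPM (counts scaled to the library total, with TMM factors) in control replicates 1 to 3, and at 4.71, 5.37 and 5.96 CPM in cKO replicates 1 to 3. The groups did not overlap (log2 fold change -2.11, SE 0.111, edgeR FDR 0.000126). Sertoli cell markers were abundant in every library: the summed level of 9 markers, among them Sox9 and Amh, was 1700 to 2140 CPM in control and 1600 to 2160 CPM in cKO testes. cKO replicate 3 stood apart. Its level of Xist was 379 CPM, against 0.369 to 1.0 CPM in the other 5 libraries. Its summed level of 4 Y-linked genes was 220 CPM, against 258 to 277 CPM elsewhere. Xist RNA marks cells with an inactive X, which XY cells lack, so these values go against a pool of XY testes alone. Whether the pool held XX tissue was not tested, and every cKO mean includes the library labelled cKO replicate 3 unless stated. Bulk counts cannot tell fewer cells of a type from less RNA per cell.

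No pentose phosphate enzyme passed the threshold. edgeR called 0 of 8 enzymes at an FDR below 0.05 (adjusted over all 15577 genes tested), where 0.0385% of all genes were called. DESeq2 also called 0 of 8, against 0.779% of all genes with an adjusted p, and limma-voom called 0 of 8. At an unadjusted edgeR p below 0.05 there was 1 enzyme of 8, Taldo1, against 11.4% of all genes (5.56% higher in cKO and 5.8% lower). DESeq2 had 1 enzyme at that level, also Taldo1, against 8.25% of all genes. The groups did not overlap for 1 enzyme of 8, again Taldo1, against 15.6% of all genes. The median log2 fold change of the 8 enzymes was 0.054, with 6 above and 2 below 0. The median over all genes tested was -0.0034, with 49.1% of genes above 0. Rpia and Rpe each changed sign when libraries were thinned to equal depth. By edgeR, H6pd did so without control replicate 2 or without cKO replicate 2. Without cKO replicate 3 the enzymes' median was 0.032 and the edgeR count was again 0.

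Most levels lay near the control mean of their enzyme. Each enzyme was read from 419 (Rpia) to 21089 (Tkt) counts per library. Of the 48 values, 42 lay within 10% of the control mean of their enzyme. The control values are among the 48 and set that mean, and the share over all genes was not computed. The coefficient of variation over the 6 libraries ran from 2.87% for Pgd to 29.8% for Tkt. Tkt in cKO replicate 3, at 187% of its control mean, was the farthest from 100% among them.

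**Figure D1:**
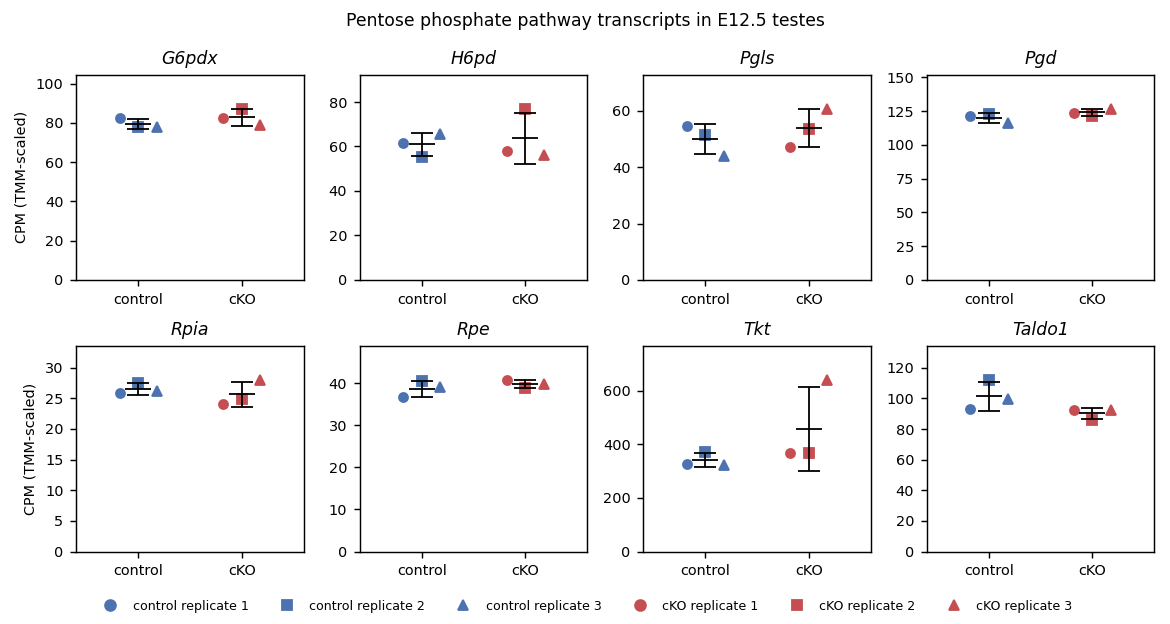
Level of each pentose phosphate enzyme transcript in CPM, on a linear axis from 0, for 3 control (blue) and 3 cKO (red) samples, with symbols for replicates and black bars for mean ± SD. Most points lie near their control mean, Tkt in cKO replicate 3 stands at 638 CPM, and the cKO points of Taldo1 all lie below the control points.

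The oxidative enzymes of the cytosol overlapped between groups. G6pdx encodes glucose-6-phosphate dehydrogenase, which catalyses the first and rate-limiting step. It lies on the minus strand of chromosome X, from 74409486 to 74429161 (mm10). Its level was 82.4, 78.1 and 77.6 CPM in control and 82.5, 87.2 and 78.8 CPM in cKO testes. The groups overlapped. The fold change was 1.04 with a 95% interval of 0.949 to 1.15 (edgeR FDR 0.718). In cKO replicate 3, the library with Xist, G6pdx was at 99.2% of its control mean.

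Pgd encodes 6-phosphogluconate dehydrogenase, which releases carbon dioxide and yields further NADPH. It lies on chromosome 4, from 149149985 to 149166707, on the minus strand. Its level was 121, 123 and 116 CPM in control and 123, 122 and 127 CPM in cKO testes. These values overlapped and gave the narrowest interval of the 8 enzymes on the log2 scale, a fold change of 1.03 (95% interval 0.954 to 1.12, edgeR FDR 0.755).

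Pgls encodes 6-phosphogluconolactonase, the enzyme between G6pdx and Pgd. Its gene lies on chromosome 8, from 71592184 to 71596267. Its level was 54.7, 51.3 and 44.0 CPM in control and 47.1, 53.6 and 60.7 CPM in cKO testes. The lowest value was in control replicate 3 and the highest in cKO replicate 3. The cKO level was 0.11 higher on the log2 scale (SE 0.107, edgeR FDR 0.717), a difference of 0.015 without cKO replicate 3 and 0.017 without control replicate 3.

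H6pd encodes hexose-6-phosphate dehydrogenase, which supplies NADPH within the endoplasmic reticulum and is separate from the cytosolic route. Its gene lies on chromosome 4, from 149979474 to 150009023. Its level was 61.6, 55.5 and 65.7 CPM in control and 58.0, 77.0 and 56.2 CPM in cKO testes. cKO replicate 2 was high and the other cKO libraries lay within the control range. The log2 fold change of 0.06 (SE 0.120, edgeR FDR 0.872) changed sign without cKO replicate 2, to -0.094. By edgeR it also changed sign without control replicate 2, to -0.009.

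The non-oxidative isomerase and epimerase also overlapped between groups. Rpia encodes ribose-5-phosphate isomerase, which makes ribose 5-phosphate, and lies on chromosome 6, from 70765720 to 70792175. Its level was 25.8, 27.6 and 26.1 CPM in control and 24.0, 25.0 and 27.9 CPM in cKO testes. The cKO values lay on either side of the control range. The fold change was 0.966 (95% interval 0.855 to 1.09, edgeR FDR 0.842).

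Rpe encodes ribulose-5-phosphate epimerase, which makes xylulose 5-phosphate for transketolase, and lies on chromosome 1, from 66700831 to 66719805. Its level was 36.7, 40.4 and 39.0 CPM in control and 40.7, 38.8 and 39.8 CPM in cKO testes. The groups overlapped, with a fold change of 1.03 (95% interval 0.928 to 1.13, edgeR FDR 0.868).

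Tkt and Taldo1, the transferases that link the pathway back to glycolysis, had the largest differences with all 6 libraries. Without cKO replicate 3 the difference of Tkt (0.107 on the log2 scale) was smaller in size than those of Taldo1 (-0.191), H6pd (0.147) and Rpia (-0.1145), and without control replicate 2 that of Taldo1 (-0.107) was smaller than that of Pgls (0.122). Tkt encodes transketolase, a thiamine-dependent enzyme that moves carbon units between sugar phosphates. Taldo1 encodes transaldolase, which completes that exchange. The 250 bases before each start site are shown because these 2 members stood farthest from 0 with all libraries. They are RefSeq promoter stretches of the build GRCm38.p6, at chr14:30548881-30549130 on the plus strand for Tkt and chr7:141391910-141392159 on the plus strand for Taldo1, written 5′ to 3′, with matches to GGGCGG (the GC box) or CCAAT on either strand in capitals.
Tkt: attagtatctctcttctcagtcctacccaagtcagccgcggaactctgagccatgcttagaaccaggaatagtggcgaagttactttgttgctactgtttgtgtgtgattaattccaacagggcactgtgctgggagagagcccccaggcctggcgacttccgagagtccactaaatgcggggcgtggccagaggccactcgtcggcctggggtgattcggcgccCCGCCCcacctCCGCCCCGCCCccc
Taldo1: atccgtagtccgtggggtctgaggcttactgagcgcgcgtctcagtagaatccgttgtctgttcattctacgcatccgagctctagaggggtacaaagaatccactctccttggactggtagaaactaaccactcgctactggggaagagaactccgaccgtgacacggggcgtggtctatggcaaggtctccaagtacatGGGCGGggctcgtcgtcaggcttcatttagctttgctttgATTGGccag

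Tkt held 3 GC box matches near its start site, of which 2 overlap by a base, and no CCAAT match. Taldo1 held 1 of each. Of the 8 enzymes, 7 held GGGCGG, the exception being H6pd. The listed start lies inside the gene as the count table gives it for H6pd (by 5787 bases), G6pdx (281) and Pgd (2). The whole stretches of H6pd and G6pdx lie inside their genes. Over all 32851 RefSeq promoter stretches of this length, 32.7% held GGGCGG and 33.8% held CCAAT. The antioxidant response letters TGACNNNGC were held by 10.2% of all stretches and, of the 8 enzymes, by G6pdx alone. TATAAA was held by 12.4% of all stretches and by 0 of the 8. A match is a description of the letters and not evidence of binding.

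Tkt was at 327, 370 and 325 CPM in control and at 366, 368 and 638 CPM in cKO testes. cKO replicates 1 and 2 lay within the control range and cKO replicate 3 lay far above it, so the groups overlapped. Tkt lies on chromosome 14, from 30549131 to 30574724. The difference on the log2 scale was 0.42 (SE 0.189, edgeR FDR 0.440), a fold change of 1.34 with a 95% interval of 0.999 to 1.80. The exact two-sided permutation p was 0.3, where 3 against 3 samples cannot go below 0.1. Without cKO replicate 3 the log2 difference was 0.11 (SE 0.0739, edgeR FDR 0.740).

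Other transcripts were high in the same library as Tkt. The 3 genes whose log2 CPM followed Tkt most closely over the 6 libraries were Col12a1 (Pearson r 0.997), Msx1 (r 0.996) and Wnt4 (r 0.995). These correlations are descriptive, were picked as the highest among all genes tested, and rest on a single high library. Col12a1, a collagen gene, was at 23.4 to 28.8 CPM in the other 5 libraries and at 92.2 CPM in cKO replicate 3. Msx1, a homeobox gene, was at 4.83 to 6.97 CPM elsewhere and at 22.8 CPM there. Wnt4, a signalling factor of the fetal ovary, was at 45.5 to 59.0 CPM elsewhere and at 138 CPM there. All 6 pre-granulosa markers tested (ovarian supporting cells), among them Foxl2, Fst and Wnt4, had log2 fold changes above 0, from 0.21 to 4.02, with edgeR calling 0 of them and 4 at an unadjusted edgeR p below 0.05. DESeq2 also called 0, but gave no p for Fst. Their summed level was 82.8 to 100 CPM in control testes, 100 and 97.3 CPM in cKO replicates 1 and 2, and 268 CPM in cKO replicate 3. None of the 6 was at 0 in any library. Fetal Leydig markers had their lowest summed level, 165 CPM, in the same library, against 243 to 443 CPM in control testes. The summed level of 6 mesonephros markers was highest there, at 21.7 CPM, against 11.5 to 14.1 CPM in control testes. It was 15.5 and 15.4 CPM in cKO replicates 1 and 2. The part of such cells, or of this library, in the Tkt value was not tested beyond the value without it.

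Taldo1 was at 92.9, 112 and 99.8 CPM in control and at 92.1, 86.0 and 92.4 CPM in cKO testes. Every cKO library lay below every control library, with a gap of under 1 CPM between control replicate 1 and cKO replicate 3. Such a separation in the lower direction was found for 7.17% of all genes tested. Taldo1 lies on chromosome 7, from 141392160 to 141402976. Its log2 fold change was -0.17 (SE 0.0742, unadjusted edgeR p 0.0435, FDR 0.428), a fold change of 0.887 with a 95% interval of 0.790 to 0.996. The exact permutation p was 0.1, the smallest possible here. With each sample dropped in turn the difference was lowest at -0.23 when control replicate 1 was dropped and nearest to 0 at -0.11 when control replicate 2 was. It was -0.19 without cKO replicate 3.

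Germ cell markers had lower mean levels in cKO than in control testes, and their summed level overlapped between groups. All 10 germ cell markers, among them Ddx4, Dazl and Dppa3, had log2 fold changes below 0, with a median of -0.78, and edgeR called 0 of them (8 at an unadjusted p below 0.05), while DESeq2 called 2, Dnd1 and Mael. Their summed level was 508, 787 and 843 CPM in control and 541, 264 and 409 CPM in cKO testes, and no marker was at 0. Both Taldo1 and the marker sum were lowest in cKO replicate 2. The part of germ cells in the Taldo1 value was not tested.

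**Figure D2:**
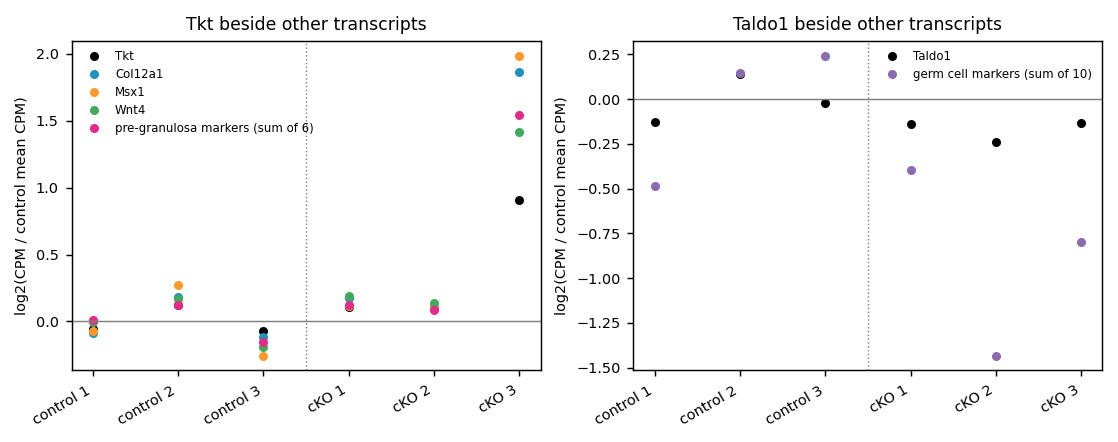
log2 ratio of CPM to the control mean CPM in each of the 6 libraries, with the dotted line between control and cKO. On the left Tkt is shown with Col12a1, Msx1, Wnt4 and the sum of 6 pre-granulosa markers (Wnt4 is among them), and all 5 are high in cKO replicate 3 alone; on the right Taldo1 is shown with the sum of 10 germ cell markers, and both are lowest in cKO replicate 2.

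**Figure D3:**
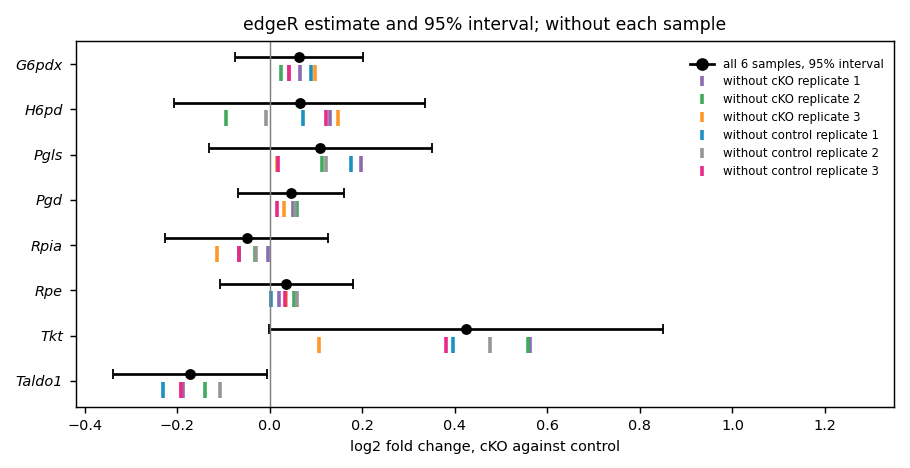
log2 fold change of cKO against control for the 8 enzymes, with the edgeR estimate and its 95% interval from all 6 samples (black) and the estimates without each sample (coloured ticks). The estimate for Tkt drops to 0.11 without cKO replicate 3, and every estimate for Taldo1 lies below 0.

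The highest and lowest enzymes differed more from each other than any enzyme did between groups. Levels of different genes were compared per length, as CPM per kb of exon. Exon lengths came from the GENCODE M21 basic annotation (GRCm38, the build of the files). The counts were made on RefSeq genes, so the counted lengths may differ from these. In control testes the order was Tkt (106 ± 7.98 CPM per kb, SD, n = 3), Taldo1 (74.4 ± 6.97), Pgd (54.1 ± 1.62), Pgls (42.5 ± 4.65), G6pdx (29.9 ± 0.998), Rpia (14.5 ± 0.514), Rpe (14.2 ± 0.691) and H6pd (12.6 ± 1.07). Neighbours in this order did not overlap between libraries, except Rpia with Rpe and Rpe with H6pd. In cKO testes the means were 142 ± 48.6 CPM per kb for Tkt, 66.1 ± 2.68 for Taldo1, 55.9 ± 1.16 for Pgd, 45.7 ± 5.77 for Pgls, 31.2 ± 1.59 for G6pdx, 14.6 ± 0.347 for Rpe, 14.02 ± 1.11 for Rpia and 13.2 ± 2.38 for H6pd (SD, n = 3 each). The transferases thus stood highest and the pentose phosphate isomerase and epimerase, with the enzyme of the endoplasmic reticulum, lowest in both groups.

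**Figure D4:**
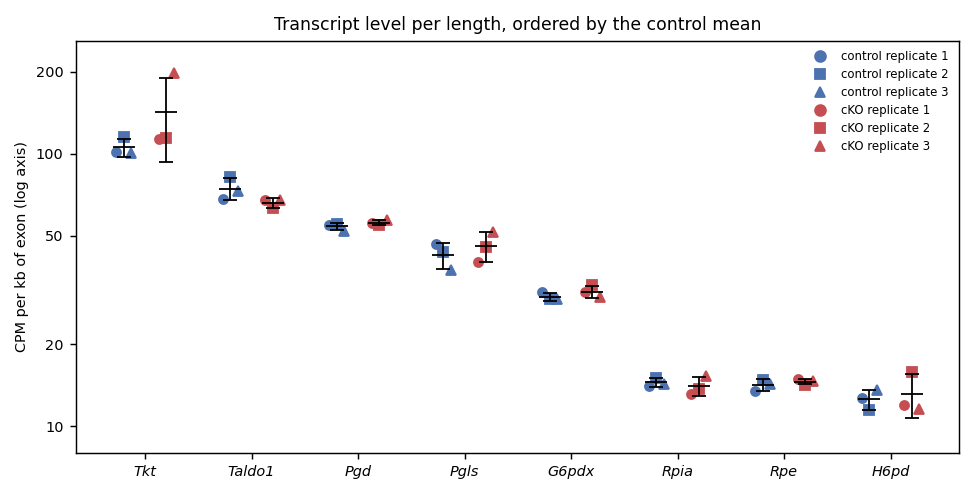
CPM per kb of exon on a log axis for each enzyme in 3 control (blue) and 3 cKO (red) samples, ordered by the control mean, with black bars for mean ± SD. Levels run from 11.5 CPM per kb (H6pd) to 115 CPM per kb (Tkt) in control testes, and the order of the 5 highest is the same in cKO testes.

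The balance of the arms was described by the summed level per length of G6pdx, Pgls and Pgd over that of Rpia, Rpe, Tkt and Taldo1. The oxidative sum was 132, 128 and 119 CPM per kb in control and 127, 133 and 138 CPM per kb in cKO testes. The non-oxidative sum was 197, 227 and 202 CPM per kb in control and 209, 205 and 296 CPM per kb in cKO testes. The ratio of the sums was 0.671, 0.566 and 0.588 in control and 0.606, 0.650 and 0.468 in cKO testes. It was thus lowest in cKO replicate 3 and overlapped among the other libraries. The cKO mean lay 0.0336 below the control mean, and 0.0196 above it without cKO replicate 3. With Tkt left out of the non-oxidative sum, the ratio was 1.38, 1.15 and 1.17 in control and 1.33, 1.47 and 1.42 in cKO testes, so its mean was higher in cKO (1.40) than in control (1.23) while the groups overlapped.

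Of the genes most like G6pdx in pattern, Jun (Pearson r 0.988 over 6 libraries), Tbc1d22a (r 0.986) and Fbxo4 (r 0.982) ranked highest, again as the extremes of all genes tested. G6pdx was highest in cKO replicate 2, as was Jun, an immediate early gene, at 76.5 CPM against 63.2 to 70.0 CPM elsewhere. The enzymes did not share a single pattern: over the 6 libraries, pairwise Pearson correlations of log2 CPM ran from -0.77 (G6pdx with Taldo1) to 0.78 (Pgls with Pgd). Within a library, all genes share its depth and scaling.

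Genes around the pathway were taken from 6 further lists. Of 61 genes, 58 were tested, with 30 log2 fold changes above 0 and 28 below, and a median of 0.013. edgeR called 0 of 58, and 12 (20.7%) had an unadjusted p below 0.05, 5 higher and 7 lower, against 11.4% of all genes. DESeq2 called 1, Pfkl. The groups did not overlap for 12 of 58 (20.7%), against 15.6% of all genes.

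Paralogs and side enzymes had 8 of 9 genes tested, 3 with log2 fold changes above 0 and 5 below (median -0.06). Tktl2, a transketolase-like gene, had the lowest p, with 2.09, 2.40 and 3.86 CPM in control and 1.95, 0.667 and 1.09 CPM in cKO testes. The groups did not overlap (log2 fold change -1.18, SE 0.381, unadjusted edgeR p 0.0120, FDR 0.377). Tktl1, the X-linked paralog, was at 0.726 CPM or less in every library (log2 fold change 0.04, FDR 0.983). G6pd2, a retrogene copy of G6pdx, had between 0 and 2 counts per library and was not tested. Tigar, a phosphatase that lowers glycolytic flux in favour of the pathway, differed by -0.40 on the log2 scale (SE 0.140, unadjusted edgeR p 0.0182, FDR 0.380). Its levels overlapped between groups.

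At the branch point, the hexokinases, glucose phosphate isomerase and phosphofructokinases decide where glucose 6-phosphate goes. Of 10 genes 9 were tested, 6 with log2 fold changes above 0 and 3 below. Pfkl, the liver-type phosphofructokinase, had the lowest p. It was at 142, 150 and 141 CPM in control and 175, 158 and 190 CPM in cKO testes, with no overlap between groups. The difference on the log2 scale was 0.27 (SE 0.0702), which passed the threshold by DESeq2 (FDR 0.0473) and not by edgeR (FDR 0.377). The DESeq2 call was lost without any single sample other than cKO replicate 2. The FDR was then 0.0902 or more, and highest, at 0.477, when cKO replicate 3 was dropped. Pfkp, another phosphofructokinase, had -0.36 (SE 0.122, edgeR FDR 0.380), and Pfkm had the highest p, with 0.04 (FDR 0.870). Both overlapped between groups. Hk1 (0.09, FDR 0.525) and Hk2 (0.15, FDR 0.441) did not overlap between groups, each higher in every cKO library. Such a separation in the higher direction was found for 8.42% of all genes. Fbp1, at 1.05 CPM or less in every library, was lower in every cKO library (-0.59, edgeR FDR 0.439). A separation in that direction was found for 7.17% of all genes.

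Enzymes that turn ribose 5-phosphate into PRPP, the donor of ribose for nucleotides, and those that use it had 8 of 9 genes tested, 4 above and 4 below 0. Their log2 fold changes lay between -0.16 and 0.13. Prpsap2 had the lowest p (-0.15, SE 0.0828, edgeR FDR 0.512) and Prpsap1 the highest (-0.0046, FDR 0.982). No gene of this list had an unadjusted p below 0.05 by edgeR.

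Other sources of NADPH and the NAD kinases had 12 of 12 genes tested, 5 above and 7 below 0, with a median of -0.015. Mthfd1, an enzyme of folate metabolism, had the lowest p (log2 fold change -0.25, SE 0.103, edgeR FDR 0.416) and its mitochondrial relative Mthfd2 the highest (-0.01, FDR 0.983). The cytosolic NADPH producers Idh1 (0.12, FDR 0.480) and Me1 (-0.04, FDR 0.862) did not pass the test, and the sign of Me1 turned without control replicate 3 (0.020) or cKO replicate 3 (0.018). Aldh1l2, a mitochondrial folate enzyme, was at 2.34, 1.47 and 1.59 CPM in control and 7.23, 1.78 and 1.24 CPM in cKO testes, high in cKO replicate 1 alone.

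The glutathione and thioredoxin systems, which spend NADPH, had 13 of 13 genes tested, 6 above and 7 below 0, with a median of -0.096. Gclc, the catalytic subunit of the enzyme that starts glutathione synthesis, had the lowest p, and its log2 difference was -0.40 (SE 0.129, FDR 0.377 by edgeR). Its levels overlapped between groups. Slc7a11, which imports cystine for glutathione, was at 1.97, 1.36 and 1.76 CPM in control and 2.97, 2.06 and 6.72 CPM in cKO testes. The groups did not overlap and cKO replicate 3 was highest. The log2 difference was 1.23 (SE 0.407, FDR 0.377 by edgeR) and 0.60 without cKO replicate 3 (SE 0.268, FDR 0.639 by edgeR). Cat (0.18, edgeR FDR 0.382) was also higher in every cKO library, while Gpx1 (-0.14, edgeR FDR 0.413) was lower in every cKO library. Txnrd2 had the highest p (0.0078, FDR 0.984). Of the NRF2 pathway, whose transcription factor is known to act on pentose phosphate genes, 8 of 8 genes were tested, 6 above and 2 below 0 (median 0.13). Srxn1 had the lowest p (0.36, SE 0.135, edgeR FDR 0.389) and Keap1 the highest (0.02, FDR 0.940).

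**Figure D5:**
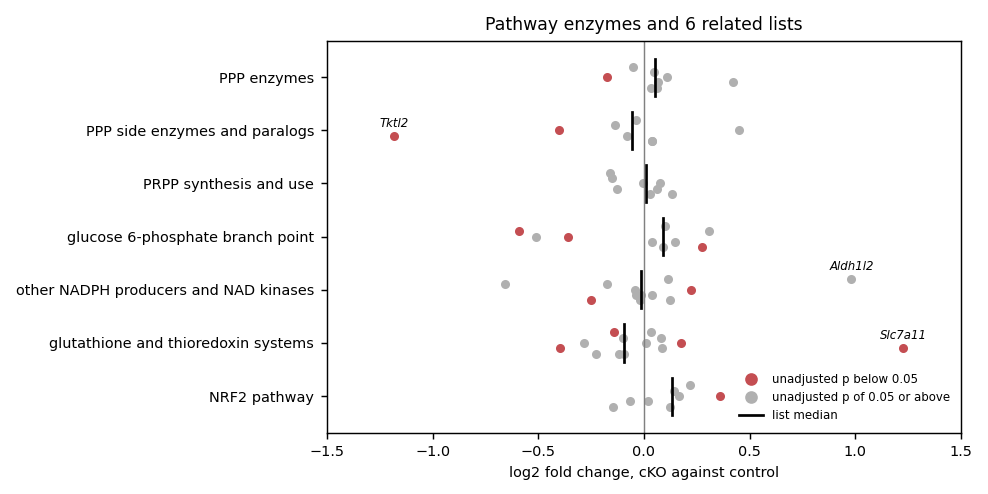
log2 fold change of cKO against control for the tested genes of the 8 pentose phosphate (PPP) enzymes and of 6 related lists; each point is a gene, red where the unadjusted edgeR p is below 0.05, and the black line is the list median. Medians lie between -0.096 and 0.13, and Tktl2, Aldh1l2 and Slc7a11 lie farthest from 0 with all libraries; Aldh1l2 (0.98) is at -0.20 without cKO replicate 1 and Slc7a11 at 0.60 without cKO replicate 3.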

How the data were processed

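Per the labels and the study's methods, the authors prepared stranded mRNA libraries (TruSeq), aligned read pairs to mm10 with STAR, and counted read pairs per RefSeq gene with featureCounts in a reverse-stranded mode (the submitters' processing notes name STAR 2.5 and Subread 1.5.0-p1). The deposited values are raw counts per gene, not normalized. Of the 8 enzymes, G6pdx and Rpe share bases with an opposite-strand gene, which strand-specific counting separates, and Tkt holds Mir3076 on its own strand (0 or 1 count per library); reads of near-identical copies may be split or lost.

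Each sample's group and replicate number came from its title. Genes were filtered with filterByExpr (minimum count 10) and normalized by TMM, and cKO was compared with control by the quasi-likelihood F-test of edgeR 4.0.16 (R 4.3.3) on all 6 samples without covariates, with Benjamini-Hochberg adjustment over all genes tested (FDR). SE and 95% intervals were derived from the F statistic. Log2 CPM used a prior count of 2. Exact permutation tests used log2 CPM. DESeq2 1.42.0 (the authors' tool) and limma-voom (limma 3.58.1) were run as alternatives, with RLE size factors, no or a stricter low-count filter (3 or more samples at 1 CPM or above), a replicate block, thinned libraries and leaving out each sample. The sources used here name no separate litters, so p-values measure the spread between these samples.

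The text names the 8 enzymes, the genes of lowest and highest p and any called gene in each related list, further genes of those lists, markers, and for G6pdx and Tkt the 3 genes of highest correlation. The enzymes and lists were chosen with earlier results of these data known.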

Additional observations from a re-analysis of the deposited data

How the results depend on the processing

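No pentose phosphate enzyme was called in any of the 19 alternatives (DESeq2 without control replicate 3 gave an adjusted p to only 1 of the 8). Tkt, G6pdx, Pgd and Pgls lay above 0 and Taldo1 below 0 in all 19. Depth was lowest in control replicate 1, and thinning the libraries to it turned the sign of Rpia, Rpe and Prpsap1. Among all genes, edgeR called 6, DESeq2 111 and edgeR with a replicate block 3. Leaving out 1 sample moved that count between 2 and 313, with edgeR at 2 to 8 and DESeq2 at 14 (without cKO replicate 3) to 313 (without control replicate 1). Of the related lists, edgeR called 0 and DESeq2 1. Leaving out 1 sample gave 0 to 3 there by DESeq2: 2 without control replicate 1 (Tigar, Gclc), 3 without cKO replicate 1 (Tktl2, Pfkp, Gclc) and 2 without cKO replicate 2 (Pfkl, Slc7a11). The causes were not tested.

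Log2 fold changes near 0 changed sign, as did the larger one of Aldh1l2 (0.98 with all 6 libraries). Tktl1 was at -0.090 with limma-voom and -0.019 with the replicate block. In thinned libraries Rpia was at 0.035, Rpe at -0.021 and Prpsap1 at 0.0079. Leaving out 1 sample, by edgeR or DESeq2, gave ranges of -0.25 to 0.39 for Tktl1, -0.094 to 0.15 for H6pd, -0.011 to 0.10 for Pfkm, -0.024 to 0.072 for Keap1, -0.018 to 0.012 for Prpsap1, -0.21 to 0.10 for Mthfd2 and -0.068 to 0.052 for Txnrd2. It gave -0.10 to 0.029 for Me1 and -0.21 to 1.38 for Aldh1l2, which belong to 8 genes of the related lists whose alternatives were chosen after seeing the data.

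Samples with the same replicate number did not deviate together (correlations of their deviations from the group means -0.203, -0.266 and -0.130 over 15577 genes). The numbers were taken as names of samples. The deviations also hold other differences between the samples, so these correlations cannot settle that choice. Whether samples of the same number shared a litter or batch was not tested. With the replicate block the log2 fold change was 0.37 for Tkt (edgeR FDR 0.784) and -0.17 for Taldo1 (FDR 0.789), and 0 enzymes were called.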

Other observations

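The levels of Tkt and Taldo1 were also set against each other within each library, a comparison chosen after their values were seen. Per kb of exon, Tkt stood at 1.49, 1.40 and 1.38 times Taldo1 in control replicates 1 to 3 and at 1.68, 1.81 and 2.92 times in cKO replicates 1 to 3. The groups did not overlap. Tkt made up 51.5%, 50.7% and 49.7% of the summed non-oxidative level in control and 54.3%, 55.6% and 67.0% in cKO testes. The pair was picked for its values, and Taldo1 alone already separated the groups, so no test is given. Both measures were highest in cKO replicate 3, the library with Xist.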
